A study of Homo sapiens with 27 samples.

Results

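The 5 human laminin alpha chain genes, LAMA1, LAMA2, LAMA3, LAMA4 and LAMA5, were taken from the 44852 genes of the deposited tables by their Ensembl identifiers, and each was found once. They were followed in H1 human embryonic stem cells (hESCs), an established line, grown on 3 laminin matrices and sampled at day 2, day 22 and day 32, with 3 libraries in each of the 9 groups. The question was whether a supplied matrix built on the α3 or on the α5 chain went with a difference in the transcripts the cells made for their own alpha chains. RNA was measured and laminin protein was not, so a chain supplied in the coating is not counted.

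In the name of an isoform the digits give its alpha, beta and gamma chain, so that LN523 and LN323 share β2 and γ3 and differ in α5 against α3, whereas LN521 shares α5 and β2 with LN523 and differs from it in γ1 against γ3. The labels gave the coatings as LN323 alone, LN521 with LN323, and LN523 with LN323. The methods of the study instead gave LN521 as the component common to all wells. The groups are called LN323, LN521 and LN523 here after their leading isoform, and under either account at least 1 alpha chain was shared by all 3 matrices, so no comparison is one of α3 alone against α5 alone. LN523 and LN323 were recombinant proteins from transfected HEK293 cells. Day 2 cells were labelled undifferentiated, and all groups then received CKI-7 and SB431542, inhibitors of casein kinase 1 and of activin and TGF-β receptors, followed by a photoreceptor medium with BDNF, CNTF, retinoic acid and DAPT, an inhibitor of γ-secretase. The replicate number was also the sequencing lane in every group, and the labels name no separate cultures. The p-values thus rest on the spread between these libraries, which may be technical in part. In the main tests that spread was pooled over genes, fully at day 2 and in large part in the other fits.

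The libraries held 25620624 to 47340990 counts. At day 2 the pluripotency gene POU5F1 stood between 2216 and 2596 TPM (counts divided by gene length and scaled to the same total in every library). At days 22 and 32 it was at or under 3.49 TPM in all but the LN521 libraries of lane 1, which stood at 108 and 22.1 TPM. The label "photoreceptor progenitors" of days 22 and 32 was checked against photoreceptor genes. Over both days CRX was at 1.00 to 23.8 TPM and RCVRN at 0 to 6.05 TPM. Of 6 photoreceptor markers, 1 to 2 were at 1 TPM or more at day 2, 2 to 5 at day 22 and 4 to 6 at day 32. Their summed TPM was 67.2 to 189 at day 2, 13.3 to 82.5 at day 22 and 18.7 to 159 at day 32. Markers of other cells were present as well, among them COL3A1 of mesenchyme (247 to 5225 TPM).

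The alpha chain gives a laminin trimer much of its identity, because its C-terminal globular domains hold the binding sites for integrins and dystroglycan. α1 is a chain of early embryonic basement membranes. α2 is known for muscle and peripheral nerve and for mesenchymal cells, α3 for skin and other stratified epithelia, where it anchors keratinocytes, and α4 for blood vessels and mesenchyme. α5 is the chain of most epithelial basement membranes and, as LN511 and LN521, the form on which hESCs are commonly grown. In the eye, laminins line the retina's inner limiting membrane and the membrane under the pigment epithelium, and forms with β2 and γ3 surround photoreceptors.

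On GRCh38, LAMA1 (ENSG00000101680) lies at chr18:6941742-7117797 on the minus strand, LAMA2 (ENSG00000196569) at chr6:128883138-129516566 on the plus strand, and LAMA3 (ENSG00000053747) at chr18:23689453-23956222 on the plus strand. LAMA4 (ENSG00000112769) lies at chr6:112107931-112254939 and LAMA5 (ENSG00000130702) at chr20:62307955-62367312, both on the minus strand. All are large genes, with merged exons of 11983 bases for LAMA4 to 26419 bases for LAMA2 in GENCODE. Exons of genes on the opposite strand cover 11.1% of the exonic bases of LAMA1, 2.53% of those of LAMA5, and none of those of LAMA3, and whether counting used strand was not stated, so reads of such partners cannot be told apart here.

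RefSeq gave promoter windows (GRCh38.p14) for LAMA2, LAMA3, LAMA4 and LAMA5. The 250 bases before the start of LAMA3 and of LAMA5 are shown because these are the chains supplied in the matrices, and because the windows differ in composition: G and C make up 60.4% of that of LAMA3 and 82.8% of that of LAMA5, against a median of 58.0% over 35116 windows. Capitals mark the AP-1 element (TGACTCA, or TGAGTCA on the other strand) and the GC box (GGGCGG, or CCGCCC on the other strand), which do not overlap.
LAMA3, chr18:23872770-23873019, plus strand: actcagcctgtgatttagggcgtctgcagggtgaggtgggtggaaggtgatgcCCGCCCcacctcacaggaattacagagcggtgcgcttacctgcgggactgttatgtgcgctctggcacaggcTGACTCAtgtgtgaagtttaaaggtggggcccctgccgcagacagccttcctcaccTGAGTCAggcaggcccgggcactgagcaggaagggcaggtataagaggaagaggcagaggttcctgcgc
LAMA5, chr20:62367313-62367562, minus strand: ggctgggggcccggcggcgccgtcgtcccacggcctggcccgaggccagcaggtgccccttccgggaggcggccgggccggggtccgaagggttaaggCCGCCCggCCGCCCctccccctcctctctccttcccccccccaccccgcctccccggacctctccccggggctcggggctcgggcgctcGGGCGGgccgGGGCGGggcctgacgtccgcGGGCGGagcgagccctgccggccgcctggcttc
The LAMA3 window lies inside the gene, before its shorter transcript, and holds 2 AP-1 elements and 1 GC box. The LAMA5 window holds 5 GC boxes and no AP-1 element. An AP-1 element occurs in 4.2% of all windows and a GC box in 42.6%, and neither was found in the windows of LAMA2 (53.2% G and C) and LAMA4 (48.4%). These matches are descriptions of letters and not of binding.

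LAMA5 and LAMA1 were the abundant chains on every matrix and day, and LAMA2, LAMA3 and LAMA4 were lower. LAMA5 stood above LAMA1 in 7 of 9 libraries at day 2, 8 of 9 at day 22 and 9 of 9 at day 32. LAMA1 stood above LAMA2 in 26 of 27 libraries. LAMA2 was above LAMA4 in 9 of 9 libraries at day 2 but in only 5 of 9 at day 22 and 7 of 9 at day 32, so these neighbours were not ordered alike from day 22 on. LAMA4 was below LAMA3 in 9 of 9 libraries at day 2 and above it in 9 of 9 at day 22.

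The LAMA5 level at day 2 was 44.3, 35.0 and 49.2 TPM on LN523 in lanes 1, 2 and 3. On LN323 it was 30.8, 54.9 and 30.7 TPM, and on LN521 93.8, 65.0 and 62.4 TPM. The LN521 libraries were thus all above those of LN323 and LN523, while LN323 and LN523 overlapped. At day 22 the means were 77.9 ± 8.94 (LN523), 74.5 ± 1.58 (LN323) and 74.9 ± 19.9 TPM (LN521; SD, n = 3 each), and at day 32 they were 70.9 ± 13.6, 76.3 ± 15.7 and 55.7 ± 16.0 TPM. The 3 matrices overlapped on both later days.

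LAMA1 was at 34.0 ± 6.05 (LN523), 37.4 ± 3.43 (LN323) and 46.0 ± 13.5 TPM (LN521) at day 2. At day 22 its means were 60.2 ± 15.3, 51.9 ± 7.55 and 60.2 ± 4.34 TPM, and at day 32 26.3 ± 3.06, 27.9 ± 5.87 and 27.3 ± 10.5 TPM. On every matrix the lowest day 22 library was above the highest day 32 library.

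**Figure D1:**
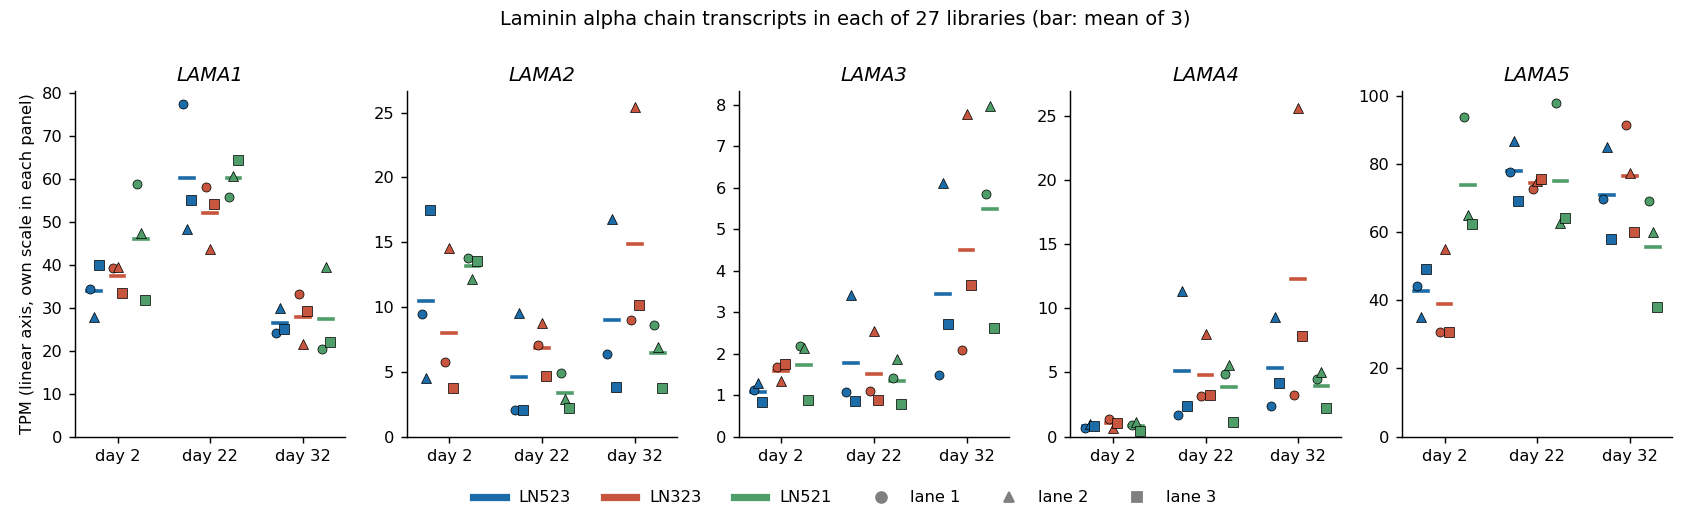
Level of each alpha chain in TPM (linear axis, a scale of its own in each panel) in the 27 libraries, by day, with matrix in colour and lane by symbol; bars are means of 3. LAMA5 on LN521 at day 2 lies apart from the other matrices (62.4 to 93.8 against 30.7 to 54.9 TPM), and lane 2 libraries (triangles) are often the highest for LAMA3 and LAMA4.

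LAMA2, the α2 chain, varied widely within groups. At day 2 it was 9.45, 4.54 and 17.5 TPM on LN523, 5.75, 14.5 and 3.76 TPM on LN323, and 13.8, 12.1 and 13.5 TPM on LN521. At day 22 it was 2.06, 9.57 and 2.06 TPM on LN523, 7.08, 8.73 and 4.64 TPM on LN323, and 4.90, 2.89 and 2.23 TPM on LN521. The LN523 library of lane 2 was high among its group there, and the 3 matrices overlapped. At day 32 its means were 9.02 ± 6.88 (LN523), 14.9 ± 9.18 (LN323) and 6.43 ± 2.47 TPM (LN521).

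LAMA3, the epithelial α3 chain, was at 0.831 to 2.18 TPM in all libraries of day 2, on LN323 at 1.67, 1.35 and 1.75 TPM, on LN523 at 1.12, 1.30 and 0.831 TPM. The LN323 libraries were all above those of LN523 by a margin of 1.35 against 1.30 TPM. By day 32 it was 1.48, 6.12 and 2.71 TPM on LN523, 2.09, 7.77 and 3.67 TPM on LN323, and 5.86, 7.97 and 2.62 TPM on LN521. The lane 2 library was the highest on every matrix.

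LAMA4, the vascular and mesenchymal α4 chain, was the lowest at day 2 (0.394 to 1.35 TPM). At day 22 it was 1.67, 11.3 and 2.37 TPM on LN523, 3.18, 7.98 and 3.26 TPM on LN323, and 4.91, 5.58 and 1.16 TPM on LN521. At day 32 it was 2.39, 9.31 and 4.20 TPM on LN523, 3.26, 25.6 and 7.84 TPM on LN323, and 4.51, 5.05 and 2.23 TPM on LN521. The lane 2 library was again the highest in all 6 groups.

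As a share of the summed alpha chain TPM, LAMA5 made up 48.9% ± 5.67 at day 2, 52.4% ± 3.97 at day 22 and 58.3% ± 6.63 at day 32 (SD, n = 9 libraries). LAMA1 made up 38.7% ± 6.36, 40.0% ± 6.92 and 24.2% ± 6.21. LAMA2 made up 9.89%, 3.37% and 8.08%, LAMA3 1.49%, 1.06% and 3.79%, and LAMA4 0.947%, 3.16% and 5.60%. The summed alpha chain level had a median of 108 TPM at day 2, 139 at day 22 and 111 at day 32, while the summed beta chains went from 138 to 520 and 552 TPM and the gamma chains from 165 to 243 and 254 TPM.

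**Figure D2:**
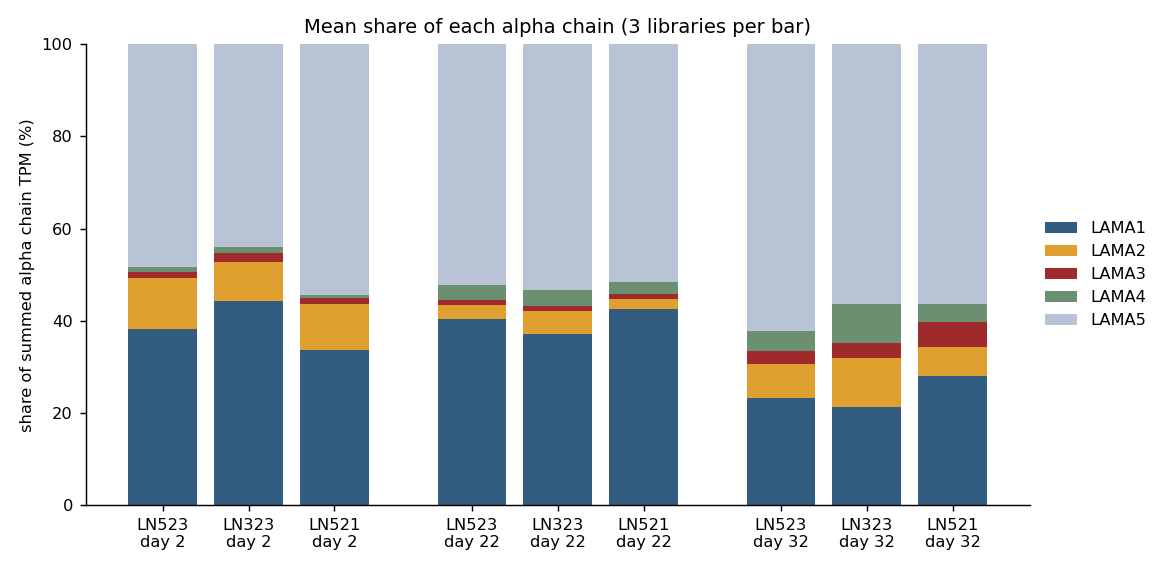
Mean share of each alpha chain in the summed alpha chain TPM (percent, bars of 100) in the 9 groups, 3 libraries each. LAMA5 and LAMA1 fill most of every bar, and the share of LAMA1 is smaller at day 32 (24.2% over 9 libraries) than at day 22 (40.0%).

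The variation of log2(TPM + 1) over the 9 libraries of a day was split between matrix, lane and rest. Lane held 86.5% of that of LAMA3 and 70.7% of that of LAMA4 at day 22, and 64.3% and 49.5% at day 32. Matrix held 65.9% of that of LAMA5 at day 2 and 3.14% at day 22.

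For the supplied alpha chain the closest comparison is LN523 against LN323, and no alpha chain passed the test on any day. Differences were tested with edgeR's quasi-likelihood test with lane in the fit, adjusted over all genes tested (Benjamini-Hochberg, threshold 0.05), and this comparison called 0.233% of genes at day 2, 0.0130% at day 22 and 0% at day 32. LAMA5 differed by a log2 fold change of 0.12 at day 2 (95% interval -0.24 to 0.47), 0.02 at day 22 (-0.31 to 0.35) and -0.06 at day 32 (-0.42 to 0.30). LAMA3 differed by -0.66 at day 2 (-1.32 to -0.0019), 0.09 at day 22 (-0.61 to 0.79) and -0.38 at day 32 (-1.06 to 0.29). The intervals of LAMA5 leave room for changes under about 0.47 on the log2 scale, and those of LAMA3 for larger ones. The spread was pooled over genes fully at day 2 and almost fully at day 22, so the intervals of those days do not measure the spread of the chain itself. At day 32 the spread was pooled in large part. With libraries left out, the day 2 value of LAMA5 reached 0.50. At an unadjusted p under 0.05 there were 1 chain at day 2 (LAMA3), 1 at day 22 (LAMA2, log2 fold change -0.84) and 2 at day 32 (LAMA2, -0.80, and LAMA4, -0.99), and each had an adjusted p of 1 in edgeR. DESeq2 and limma called 0 chains here on each day. Simulated data for this comparison at day 32 had 31% of the genes given a log2 change of 1 called, and 93% of those given 2. A change of about 1 would thus often be missed. In bulk RNA, fewer cells of a type and less RNA per cell cannot be told apart in any of these comparisons.

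These counts of 0 depended on the fit and on single libraries for LAMA2 and LAMA4. With all libraries of both groups kept but LN521 left out of the fit, LAMA2 was called lower on LN523 at day 22 (-0.96, edgeR adjusted p = 0.00755), and LAMA2 (-0.78, adjusted p = 7.92e-06) and LAMA4 (-0.91, adjusted p = 7.74e-07) were called lower at day 32. Each refit estimated the spread anew, and LAMA4 had a larger change in the main fit (-0.99), where it was not called. Adjusted p values of the refits thus do not compare like for like with the main ones. Without lane 1 of every group, LAMA2 (-0.93, adjusted p = 0.00151) and LAMA4 (-1.17, adjusted p = 1.60e-05) were also called lower at day 32. All 6 mesenchyme markers had values below 0 in the same comparison at day 32, with 0 called (median log2 fold change -1.03, all genes -0.0096), and 5 of 6 did at day 22 (median -0.24). Their part in the LAMA2 and LAMA4 values was not tested. Without the LN323 library of lane 2, LAMA2 at day 2 was higher on LN523 by 1.15 (adjusted p = 9.92e-05, edgeR), and without the LN523 library of lane 3 the difference was -0.25 (adjusted p = 1). At day 22 the LAMA2 difference was -1.61 without the LN523 library of lane 2 (adjusted p = 0.00205). At day 32 LAMA4 on LN523 was at -1.41 without the LN323 library of lane 1 (adjusted p = 0.0351). Neither LAMA3 nor LAMA5 was called under any of 18 alternatives on any day.

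Against LN323, LN521 carried the 1 difference between matrices that passed: LAMA5 was higher at day 2 by a log2 fold change of 0.69 (SE 0.18, 95% interval 0.33 to 1.05, edgeR adjusted p = 0.0121). The comparison called 2.50% of genes, and its median over all genes was 0.20. A test of any difference among the 3 matrices gave LAMA5 at day 2 an adjusted p of 0.0130, with 2.22% of genes called, and it called no alpha chain at day 22 or day 32 (0.774% and 0.109% of genes). The call was not stable: it held in 7 of 18 alternatives, though the difference was above 0 in all of them, from 0.41 to 1.07. It was lost with the bias-adjusted quasi-likelihood fit (adjusted p = 0.197), DESeq2 (0.143) and limma (0.236), and without the LN323 library of lane 1 (log2 fold change 0.44, adjusted p = 1) or lane 3 (0.53, 0.374) or the LN521 library of lane 1 (0.47, 0.663). Longer genes as a class were higher in the same comparison, with a median log2 fold change of 0.09 for 2400 expressed genes over 10 kb of exons and -0.14 for 3827 genes under 3 kb, and LAMA5 has 14291 exonic bases. The part of length in the LAMA5 difference was not tested.

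LN523 against LN521, 2 matrices with α5, gave LAMA5 at day 2 a log2 fold change of -0.58 (-0.93 to -0.22, edgeR adjusted p = 0.123), and no chain was called on any day. It called 0.624% of genes at day 2, 0.572% at day 22 and 0.0609% at day 32. The LN521 group is shared by this comparison and the one above. At day 2 LAMA5 was thus highest in value on LN521, above LN523 and LN323.

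From day 22 on, LN521 against LN323 called 0.616% of genes at day 22 and 0.117% at day 32, and no alpha chain. The log2 fold change of LAMA2 was -1.0 at day 22 (-1.59 to -0.41, edgeR adjusted p = 0.125) and -1.08 at day 32 (adjusted p = 0.310). That of LAMA4 was -1.18 at day 32 (adjusted p = 0.456) and that of LAMA5 -0.46 (adjusted p = 0.770). These values depended on the LN521 library of lane 1, which kept the most POU5F1. Without it LAMA2 was called lower at day 32, at -1.54 (edgeR adjusted p = 7.65e-13), LAMA4 at -1.95 (adjusted p = 9.60e-18) and LAMA5 at -0.56 (adjusted p = 0.00127). Leaving it out also made the fit estimate the spread anew. The adjusted p values without it thus do not compare like for like with those above. At day 22, without the lane 1 library of LN521, LAMA2 was at -1.54 (adjusted p = 5.79e-05) and LAMA4 at -1.18 (adjusted p = 0.00468). Mesenchyme markers moved with these values, with 3 of 6 lower and 0 higher on LN521 at day 22 (0.306% of all genes were called lower, median log2 fold change -1.19, all genes 0.07) and again 3 of 6 lower at day 32 (0.104% of all genes, median -1.67). Their part in LAMA2 and LAMA4 was not tested.

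In LN523 against LN521, 0 chains were called at day 22, with 0 at an unadjusted p under 0.05. At day 32 LAMA3 was at -0.81 (-1.51 to -0.12, edgeR adjusted p = 0.754) and LAMA5 at 0.40 (0.04 to 0.76, adjusted p = 0.845). All 6 surface ectoderm and keratinocyte markers had values below 0 in that comparison, with 0 called. Without the LN521 library of lane 1, LAMA2, LAMA4 and LAMA5 were called higher on LN523 at day 32, by 0.77, 1.03 and 0.49. LAMA5 at day 2 remained the 1 chain called between matrices with all libraries of a day in the fit.

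**Figure D3:**
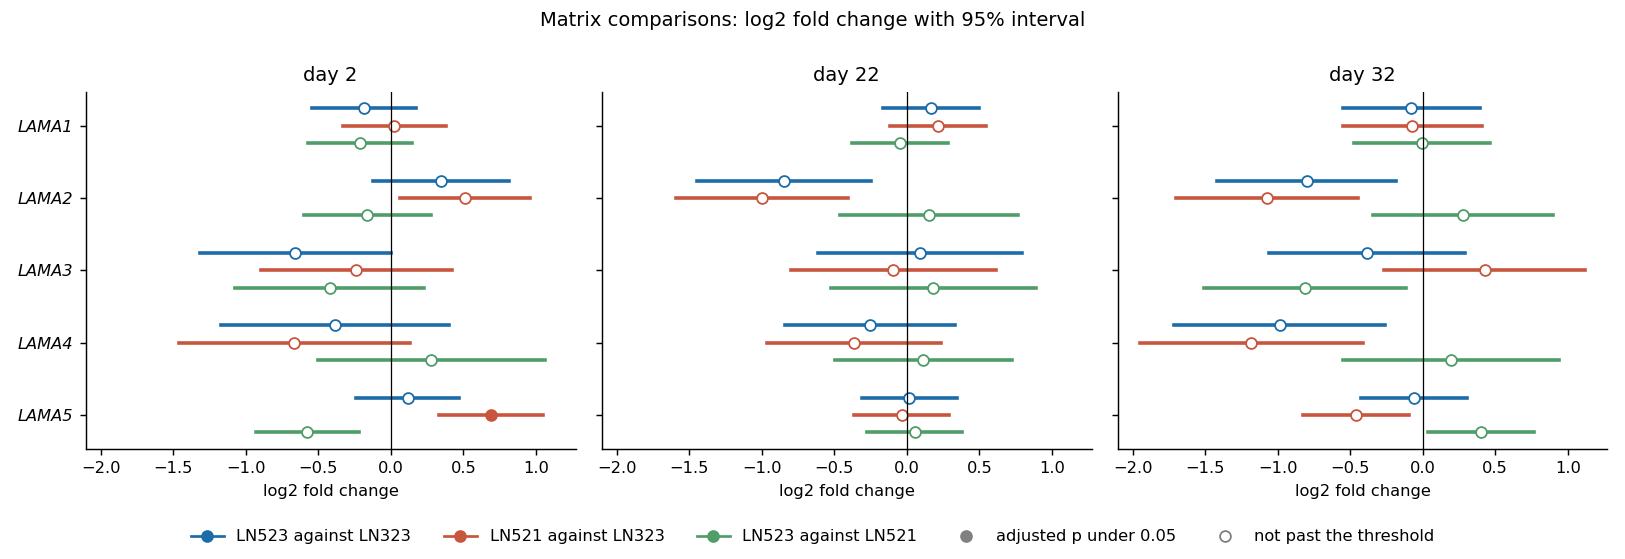
Log2 fold change (points) with 95% interval (lines) of each alpha chain in the 3 comparisons of matrices at days 2, 22 and 32; filled points have an adjusted p under 0.05 in edgeR. The filled points are LAMA5 at day 2 in LN521 against LN323 (0.69), and the intervals of LAMA5 in LN523 against LN323 span 0 on all 3 days.

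Differences between days on the same matrix were tested in a fit of all 27 libraries. Counts of calls here do not compare like for like with those between matrices, which came from fits of 1 day each. From day 2 to day 22, 21.7% of genes were called on LN523, 22.7% on LN323 and 18.9% on LN521. LAMA4 rose on all 3 matrices, by a log2 fold change of 1.95 on LN523 (SE 0.46, edgeR adjusted p = 0.000849), 1.56 on LN323 (SE 0.45, 0.0068) and 2.23 on LN521 (SE 0.46, 0.000175). The rise was called in 15 of 15 alternatives on LN523 and LN521 and in 13 of 15 on LN323, where it was lost without the day 2 library of lane 2 (1.05, adjusted p = 0.0983). LAMA2 fell on LN523 by 1.94 on the log2 scale (adjusted p = 0.000458) and on LN521 by 2.05 (adjusted p = 0.000192). On LN323 its change was -0.44 (adjusted p = 0.587). The fall was called in 12 of 15 alternatives on LN523 and in 15 of 15 on LN521. One of the losses on LN523 was without the day 2 library of lane 3 (-1.05, edgeR adjusted p = 0.0855). With libraries left out the change on LN523 ran from -3.01 to -0.90.

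LAMA5 rose from day 2 to day 22 on LN523 by 0.53 (SE 0.20, edgeR adjusted p = 0.0499) and on LN323 by 0.63 (SE 0.20, adjusted p = 0.0169), and its change on LN521 was 0.0072 (-0.40 to 0.41). The rise was called in 7 of 15 alternatives on LN523 and 10 of 15 on LN323. It was lost on LN523 without the day 2 library of lane 1 (0.50, adjusted p = 0.157) or lane 2 (0.38, 0.319), and on LN323 without that of lane 1 (0.44, 0.212) or lane 3 (0.56, 0.0929) or the day 22 library of lane 3 (0.59, 0.0534). LAMA1 and LAMA3 were not called in this interval on any matrix, with LAMA1 at 0.51 on LN523 (adjusted p = 0.0961).

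From day 22 to day 32 few genes changed: 0.381% were called on LN523, 0.0424% on LN323 and 0.268% on LN521. LAMA1 fell on LN523 by 1.11 on the log2 scale (SE 0.22, edgeR adjusted p = 0.00368) and on LN521 by 1.13 (SE 0.22, adjusted p = 0.00585), and on LN323 it was at -0.92 (-1.36 to -0.48, adjusted p = 0.137). LAMA3 rose on LN521 by 1.98 (SE 0.40, adjusted p = 0.00778), and was at 1.57 on LN323 (0.79 to 2.36, adjusted p = 0.161) and 1.10 on LN523 (0.32 to 1.87, adjusted p = 0.518). These calls held in 9 of 15 alternatives for LAMA1 on LN523, 10 of 15 for LAMA1 on LN521 and 8 of 15 for LAMA3. Without the day 32 LN521 library of lane 1, LAMA1 was at -0.89 (adjusted p = 0.120) and LAMA3 at 1.75 (adjusted p = 0.0820). LAMA1 on LN523 was at -0.92 without the day 22 library of lane 1 (adjusted p = 0.134).

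**Figure D4:**
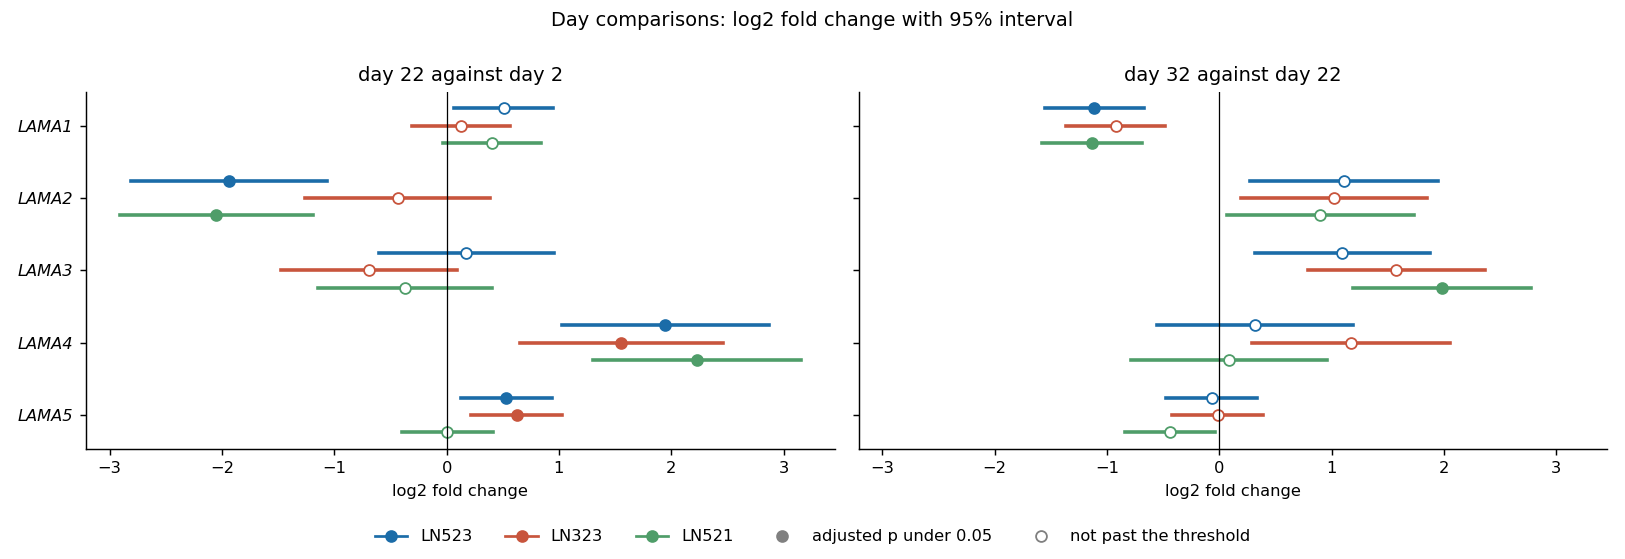
Log2 fold change (points) with 95% interval (lines) of each alpha chain between days on each matrix; filled points have an adjusted p under 0.05 in edgeR. LAMA4 lies above 0 on all 3 matrices from day 2 to day 22 (1.56 to 2.23), and LAMA1 lies below 0 on all 3 from day 22 to day 32 (-1.13 to -0.92).

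Whether a difference between matrices itself changed between days was tested in 6 interactions, and 0 alpha chains were called in each. The change of LN521 against LN323 from day 2 to day 22 called 0.0201% of genes, that of LN523 against LN521 called 0.00446%, and the other 4 called 0%. At an unadjusted p under 0.05 stood LAMA2 from day 2 to day 22 in LN523 against LN323 (-1.50, edgeR adjusted p = 1) and in LN521 against LN323 (-1.62, adjusted p = 0.647), and LAMA5 in LN521 against LN323 (-0.62, adjusted p = 0.902). A call on 1 matrix and not on another, as for LAMA2 and LAMA5 above, is therefore not shown to differ between them.

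Beta and gamma chains pair with the alpha chains in the trimer. Of the 7 beta and gamma chains, 5 rose and 1 fell from day 2 to day 22 on LN523, 4 rose and 1 fell on LN323, and 5 rose and 1 fell on LN521 (median log2 fold changes 1.41, 1.45 and 1.19, against 0.51, 0.13 and 0.0072 for the 5 alpha chains and 0.02, 0.02 and -0.02 over all genes). The difference between the chain groups was not tested. Of all genes 11.5%, 11.8% and 10.8% were called higher and 10.2%, 10.9% and 8.09% lower. LAMB1, the β1 chain of LN111 and LN511, rose by 2.26, 2.31 and 2.44 on LN523, LN323 and LN521. LAMB3, a β3 partner of α3, rose by 1.44, 1.60 and 1.41, while LAMC3, the γ3 chain of LN523 and LN323, fell by 2.86, 3.06 and 2.29 on the log2 scale. LAMB4 had 0 counts in 8 of 9 libraries of day 2 and 1 in the other, and 6 to 324 counts at day 22. From day 22 to day 32 LAMB3 rose on each matrix, by 2.08, 2.46 and 3.52 (edgeR adjusted p = 0.0233, 0.0206 and 6.51e-05). It was the 1 beta or gamma chain called on LN523 and on LN323, and 1 of 2 called higher on LN521. On each matrix these calls from day 22 to day 32 were lost in at least 1 alternative. No beta or gamma chain was called between matrices on any day in the main fits, which called 0% to 2.50% of all genes. With libraries left out, up to 2 were called higher in LN523 against LN521 at day 22. In the other comparisons of matrices it was at most 1 in either direction.

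Of 7 laminin receptors, ITGB4, the integrin β4 subunit of hemidesmosomes, rose from day 2 to day 22 by 2.62, 2.58 and 2.54 on LN523, LN323 and LN521, and ITGA6, its α6 partner and a hESC receptor for α5 laminins, fell by 1.66, 1.54 and 1.18 on the log2 scale. ITGA3 rose on LN523 by 0.62 (edgeR adjusted p = 0.0309). No receptor was called between matrices in the main fits. With libraries left out, at most 1 was called in either direction in any such comparison. Over that interval 11.5%, 11.8% and 10.8% of all genes were called higher on LN523, LN323 and LN521, and 10.2%, 10.9% and 8.09% lower. Of 12 basement membrane partners, 8 rose on LN523, 7 on LN323 and 7 on LN521 from day 2 to day 22 and 0 fell, with SPARC at 2.84, 2.83 and 3.09 and the collagen IV chains COL4A5 at 2.39, 2.52 and 1.81, COL4A2 at 2.30, 2.16 and 2.03, and COL4A6 at 2.10, 1.87 and 1.98. On LN521 the count was 4 higher and 2 lower without lane 3 of every group. HSPG2, the basement membrane proteoglycan perlecan, was the 1 partner called between matrices in the main fits. At day 2 it was higher on LN521 than on LN323 by 0.65 (edgeR adjusted p = 0.0255), where 2.50% of all genes were called. It was lower on LN523 than on LN521 (-0.72, adjusted p = 0.0306), where 0.624% were called, as LAMA5 was in value. Neither call held with the bias-adjusted fit. With libraries left out, up to 4 partners were called higher in LN521 against LN323 at day 2. Up to 3 were called lower in LN523 against LN521 at day 2 and in LN521 against LN323 at day 32.

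Markers of other cells moved in part with lane and with LAMA3 and LAMA4. The summed TPM of 6 mesenchyme markers at day 32 was 8786 in the lane 2 library of LN323 and 5354 in that of LN523, against 979 to 3192 in the other 7, and these were the libraries with the most LAMA4. At day 22 the LN523 and LN323 libraries of lane 2 had 3048 and 2160, against 771 to 1663 in the other 7. LN521 differed: at day 22 its lane 2 library had the lowest mesenchyme sum of that matrix (771, against 1020 in lane 1 and 980 in lane 3) but the most LAMA4. At day 32 its lane 2 library had a lower sum than that of lane 1 (1523 against 1878) but more LAMA4. The 6 surface ectoderm and keratinocyte markers summed to 673 to 791 TPM at day 32 in the 3 lane 2 libraries and the LN521 library of lane 1, and to 96.1 to 323 in the other 5. Most of that sum was 1 gene, KRT17, at 92.7 to 624 TPM (mean 364), while the means of KRT15, TP63 and GRHL3 were 24.0, 21.4 and 21.0 TPM and those of KRT5 and KRT14 2.95 and 0.634 TPM. The same 4 libraries had 5.86 to 7.97 TPM of LAMA3, and the other 5 had 1.48 to 3.67. At day 2 these sums were 2.4 to 4.9 TPM for keratinocyte and 84.6 to 246 TPM for mesenchyme markers. Of the defining markers, TP63 was at 1.74 to 48.4 TPM at day 32 but KRT14 at 0 to 1.46 TPM, and the 6 endothelial markers summed to 7.39 to 22.8 TPM. Among those, CDH5 (0 to 1.72 TPM) and VWF (0.18 to 0.766 TPM) were the lowest, and PECAM1 (0.39 to 3.98 TPM), KDR (1.56 to 6.90 TPM), CLDN5 (0.492 to 9.46 TPM) and TEK (1.62 to 13.6 TPM) reached the range of LAMA4 (2.23 to 25.6 TPM). The part of such cells in the LAMA3 and LAMA4 values was not tested.

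**Figure D5:**
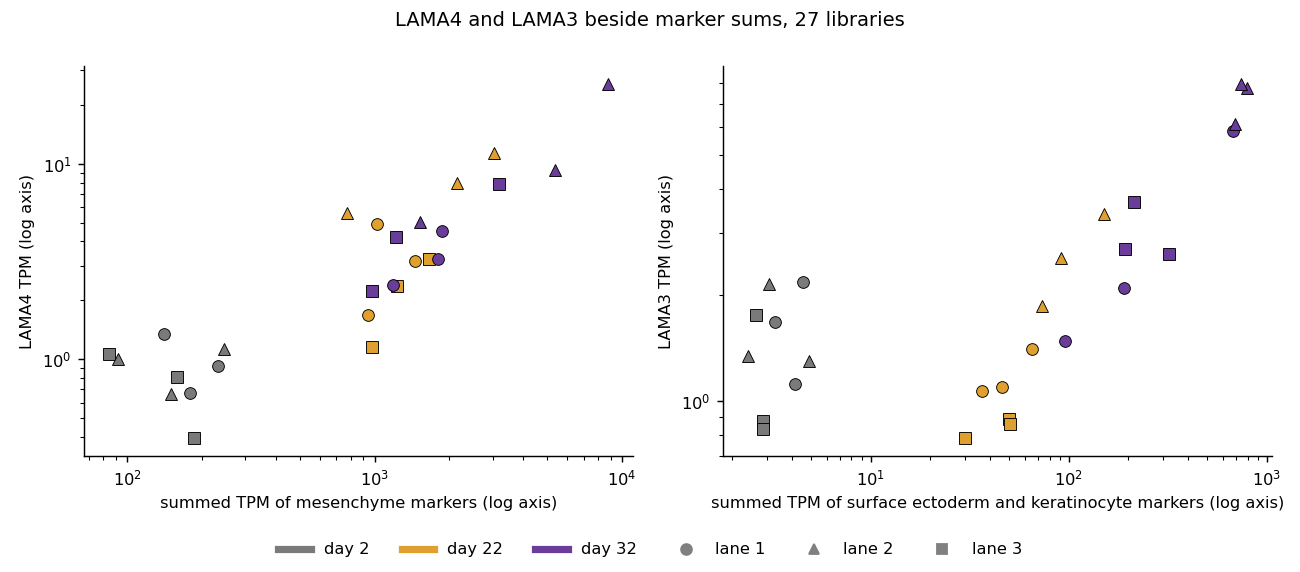
LAMA4 against the summed mesenchyme markers, and LAMA3 against the summed surface ectoderm and keratinocyte markers (TPM, log axes), in 27 libraries by day (colour) and lane (symbol). At day 32 the 4 libraries with keratinocyte sums of 673 to 791 TPM hold the 4 highest LAMA3 levels, 5.86 to 7.97 TPM.

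The genes whose log2(TPM + 1) followed each chain most closely were sought among 28282 genes over the 27 libraries, which share days, lanes and depth between genes, so the coefficients are descriptions. LAMA5 was most like HSPG2 (Pearson r = 0.93, Spearman rho = 0.93, and r = 0.94 with the mean of each day subtracted), followed by KMT2C and BOD1L1. LAMA4 was most like SGCD (r = 0.95, rho = 0.93), INPP4B and NPR3, and with day means subtracted like BCL11B (r = 0.93), VCAN and EMILIN1. LAMA3 was most like FOXQ1 (r = 0.91, rho = 0.73), IL18R1 and S100A8, and with day means subtracted like SVIL (r = 0.94), GBGT1 and ERBB3. LAMA2 was most like ROBO1 (r = 0.83, rho = 0.85), DDIT4L and LIFR, and within days like BNC2 (r = 0.87), PLD1 and COL1A2. LAMA1 was most like ARID3A (r = 0.84, rho = 0.80), KIT and XPNPEP3, and within days like MCF2L2 (r = 0.85), XPNPEP3 and PVT1. Among the chains themselves LAMA3 and LAMA4 were the most alike (r = 0.72, and 0.77 with day means subtracted). Leaving out the 2 libraries farthest from the median moved the first-ranked values to between 0.78 and 0.93.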

How the data were processed

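RNA was made into libraries with a stranded total RNA kit after depletion of ribosomal RNA and sequenced as paired reads, per the labels and the methods of the study. The authors aligned reads to GRCh38 with STAR 2.5.2b and counted genes with featureCounts 1.5.1 (the submitters' processing notes also name cutadapt), and removed ribosomal RNA and mitochondrial genes. The deposited counts are whole numbers per gene, of which 68.8% of those above 0 are even, and the deposited TPM values are the same counts divided by gene length and scaled per library: their ratio stayed within 1% across libraries for all 13476 genes with at least 20 counts everywhere. Levels are given in TPM and tests were run on counts.

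Matrices were compared within a day (9 libraries) and days within a matrix (27 libraries) with edgeR 4.0.16 (R 4.3.3; TMM factors, glmQLFit and glmQLFTest), with lane as a covariate as in the methods of the study, leaving out genes whose summed count was 1 or less, and genes with a Benjamini-Hochberg adjusted p under 0.05 were called. At day 2 edgeR estimated no gene-to-gene difference in spread, so the spread there was pooled fully over genes. In the other fits the pooled spread had a median weight of 87.7 (day 22), 19.9 (day 32) and 34.5 degrees of freedom (27 libraries). The libraries of each gene gave 4, 4 and 16. Same-numbered libraries share a lane by the labels, which is where the pairing comes from: the mean correlation of their deviations from group means was -0.41, 0.61 and 0.70 between LN523 and LN323 at days 2, 22 and 32, 0.18, 0.20 and 0.18 between LN523 and LN521, and -0.11, 0.14 and 0.04 between LN521 and LN323. Alternatives were a fit without the block, RLE size factors, the filterByExpr filter, DESeq2 1.42.0, limma 3.58.1 on log2(TPM + 1) and log2(TPM + 0.1), other sets of libraries in the fit, and each library left out. The scripts were tested on simulated data. The members and gene lists were chosen with earlier results of these data known. The 5 chains are named in every comparison. Of the 3 lists of other laminin chains, receptors and partners, not every gene past the threshold is named, and at most 4 are given by size of change. Gene positions are from GENCODE 44 and promoters from RefSeq. Single values of some list genes are not reported here.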

Additional observations from a re-analysis of the deposited data

How the results depend on the processing

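Of 1305 values of single chains under the alternatives, 1094 kept their direction and their side of the threshold, 45 were newly called, 47 were no longer called and 119 changed sign, of which 0 were called; the bias-adjusted fit and leaving out a lane of every group were chosen after seeing the data. The cause of these changes was not tested. The 1 chain called in LN521 against LN323 at day 2 became 0 with the bias-adjusted fit, filterByExpr, DESeq2, limma with either pseudocount, and all 27 libraries in the fit. From day 22 to day 32, the 1 call on LN523 and the 2 on LN521 became 0 with filterByExpr and with limma on log2(TPM + 1). With only the 2 groups compared in the fit, the 0 calls became 1 at day 22 for LN523 and for LN521 against LN323 and 2 at day 32 for LN523 against LN323. Without the replicate block, LN523 against LN521 at day 2 had 1 call (LAMA5), the change on LN521 from day 22 to day 32 had 1, and LAMA5 in LN521 against LN323 at day 2 kept its call (adjusted p = 0.00248, edgeR). The replicate block also decided the signs of LAMA4 in LN523 against LN323 at day 22 (0.038 without it), LAMA5 on LN323 from day 22 to day 32 (0.0052), and the interactions of LAMA2 from day 22 to day 32 in LN523 against LN323 (-0.032) and of LAMA4 from day 2 to day 22 in LN523 against LN521 (0.025); over time, LAMA5 on LN523 from day 2 to day 22 (adjusted p = 0.0584) and LAMA3 on LN521 from day 22 to day 32 (adjusted p = 0.0715) lost their calls without it, and it changed the call of no other chain. Over all genes at day 2, the 967 calls in LN521 against LN323 became 99 with the bias-adjusted fit, 0 with filterByExpr and 1476 without the block, the 241 in LN523 against LN521 became 1, 0 and 522, and the 90 in LN523 against LN323 became 0, 0 and 103. At day 22, the 238 calls in LN521 against LN323 became 0, 0 and 0 and the 221 in LN523 against LN521 became 0, 0 and 1. LAMA4 at day 2 rested on the fewest counts of the chains, 48 to 204 per library. 5 of 180 shares moved by more than 1 SD, all when computed from counts in place of TPM: LAMA1 on LN523 at day 2 (42.2%), LAMA2 on LN521 at days 2 (7.04%), 22 (1.56%) and 32 (4.52%), and LAMA4 on LN521 at day 32 (3.14%).

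Other values close to 0 changed sign with the fit. LAMA1 in LN521 against LN323 at day 2 was -0.080 with 27 libraries and -0.0088 with 2 groups, and LAMA3 there was 0.040 and 0.024 by limma with pseudocounts of 1 and 0.1. LAMA2 in LN523 against LN521 at day 2 was 0.052 with 27 libraries, and LAMA1 at day 32 was 0.0056 and 0.0075 by limma and 0.030 with 2 groups. LAMA5 on LN323 from day 22 to day 32 was 0.015 by limma, and on LN521 from day 2 to day 22 it was -0.087 with RLE factors, -0.0078 with filterByExpr and -0.087 with DESeq2.

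With libraries left out, calls in LN523 against LN323 ran from 0 to 1 at days 2 and 22 and 0 to 2 at day 32, in LN521 against LN323 from 0 to 2 at days 2 and 22 and 0 to 3 at day 32, and in LN523 against LN521 from 0 to 1 at days 2 and 22 and 0 to 3 at day 32. From day 2 to day 22 they ran from 1 to 4 on LN523 and 1 to 2 on LN323, and from day 22 to day 32 from 0 to 2 on LN523, 0 to 3 on LN323 and 0 to 2 on LN521. Log2 fold changes that crossed 0 in LN523 against LN323 were LAMA2 (-0.51 to 1.36) and LAMA5 (-0.11 to 0.50) at day 2, LAMA1 (-0.048 to 0.28), LAMA3 (-0.15 to 0.25), LAMA4 (-0.71 to 0.19) and LAMA5 (-0.11 to 0.14) at day 22, and LAMA1 (-0.41 to 0.20) and LAMA5 (-0.19 to 0.084) at day 32. In LN521 against LN323 they were LAMA1 (-0.13 to 0.22), LAMA2 (-0.068 to 1.45) and LAMA3 (-0.57 to 0.23) at day 2, LAMA3 (-0.36 to 0.12), LAMA4 (-1.18 to 0.18) and LAMA5 (-0.27 to 0.12) at day 22, and LAMA1 (-0.55 to 0.26) and LAMA3 (-0.20 to 0.85) at day 32. In LN523 against LN521 they were LAMA2 (-0.85 to 0.39) and LAMA4 (-0.082 to 0.71) at day 2, LAMA1 (-0.32 to 0.15), LAMA2 (-0.66 to 0.84), LAMA3 (-0.12 to 0.48), LAMA4 (-0.38 to 0.97) and LAMA5 (-0.10 to 0.27) at day 22, and LAMA1 (-0.22 to 0.37), LAMA2 (-0.19 to 0.77) and LAMA4 (-0.24 to 1.03) at day 32. Over time they were LAMA3 from day 2 to day 22 on LN523 (-0.30 to 0.49), LAMA4 (-0.040 to 0.95) and LAMA5 (-0.20 to 0.014) from day 22 to day 32 on LN523, LAMA5 on LN323 (-0.17 to 0.17), LAMA4 on LN521 (-0.31 to 0.69), and LAMA5 from day 2 to day 22 on LN521 (-0.11 to 0.19).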
